A study of Mus musculus with 9 samples.

Results

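A set of 6 genes that mark neurons was followed through a set of deposited long noncoding RNA tables. Nefm and Nefl encode neurofilament proteins, and Syt1 and Snap25 encode proteins that act in synaptic vesicle fusion. Rbfox3 encodes the neuronal nuclear antigen NeuN, and Map2 encodes a dendritic microtubule protein. Every listed transcript was taken whose span overlaps the body of 1 of these 6 genes by at least 1 base in GENCODE M21 on the GRCm38 build. This gave 35 of 69547 listed transcripts, over 5 of the 6 genes. The tables list long noncoding transcripts and give no separate value for the messenger RNAs of these genes.

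The samples were total RNA of whole spinal cord from wild-type C57BL/6 mice of 7 to 9 weeks, taken on day 7, with 3 libraries in each of 3 groups. The HBO group received hyperbaric oxygen, oxygen breathed above atmospheric pressure, after spinal cord injury. The injury group had the injury alone. The control group is labelled as uninjured in the sample labels and as sham in the series design, so whether these animals were operated on is not settled. Nothing states that the libraries of a group came from separate animals, so each p-value is set against library-to-library spread that could be purely technical. Listed counts came to 2295433 in the shallowest library, HBO replicate 3, and 3148744 in the deepest, injury replicate 1. On the first principal component of log2 CPM (29.95% of the variance) control stood at one end and the 6 libraries of injured cord at the other, and on the next (12.2%) HBO replicate 3 lay apart from the rest.

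Neurofilaments are the intermediate filaments of axons, built from light, medium and heavy subunits, and they help to set axon calibre. At the synapse, SNAP-25 forms with other SNARE proteins the complex that fuses vesicles with the membrane, and synaptotagmin-1, the Syt1 product, is the calcium sensor for that step. NeuN is a splicing regulator used as a label of neuronal nuclei, and MAP2 stabilises microtubules in dendrites.

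Most of the 35 transcripts lay in introns. By their spans, 28 touched no coding-transcript exon of the host gene, and 7 overlapped an exon. Of the 35, 24 had a single exon and 11 were spliced. NONCODE identifiers were carried by 33 and Ensembl identifiers by 2. Syt1, which covers 513333 bases of chromosome 10 on the minus strand, held 19 transcripts, 17 of them in introns. Rbfox3, on the minus strand of chromosome 11, held 6, all in introns. Map2, on the plus strand of chromosome 1, held 5, of which 4 were intronic and 1 lay partly on a 5′ UTR exon. Nefm, on the minus strand of chromosome 14, held 4. Snap25, on the plus strand of chromosome 2, held 1, and this transcript also overlaps the neighbouring gene Ankef1. Nefl, the light neurofilament gene, held none. Its body (chr14:68083863-68089095, plus strand) lies inside the annotated body of Nefm (chr14:68082590-68124846), which GENCODE extends far beyond the usual Nefm transcript. The tables give no strand, so reads from a listed transcript and from the messenger or pre-messenger RNA of its host gene cannot be told apart.

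One such overlap is at the start of Nefm. The spans of all 3 exon transcripts of Nefm take in most or all of the first exon (chr14:68123740-68124846, 1107 bases) together with sequence upstream of the gene. Which part of it the spliced ones among them keep is not given.

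RefSeq's table of promoters (GRCm38.p6) had entries for Syt1, Rbfox3 and Map2. A window upstream of a start site of each gene is shown. Any link between its letters and the changes that follow was not tested. Capitals mark matches on either strand to the letters CCAAT (the CAAT box), to the letters GGGCGG (the GC box) and to the letters TATAAA (the TATA box), which do not overlap each other here. Syt1 is shown at chr10:109010976-109011225 and Rbfox3 at chr11:118761042-118761291, both on the minus strand with 250 bases. The last 7 bases of the Syt1 stretch, which take in the end of its GC box, lie in the first exon of a GENCODE transcript of Syt1. Map2 is shown at chr1:66175079-66175272 on the plus strand, with 194 bases that end where a GENCODE exon begins.
Syt1: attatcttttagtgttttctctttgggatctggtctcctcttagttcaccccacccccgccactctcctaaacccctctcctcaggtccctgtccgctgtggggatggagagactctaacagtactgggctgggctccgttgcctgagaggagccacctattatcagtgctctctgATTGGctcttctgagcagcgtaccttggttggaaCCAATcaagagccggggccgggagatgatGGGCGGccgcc
Rbfox3: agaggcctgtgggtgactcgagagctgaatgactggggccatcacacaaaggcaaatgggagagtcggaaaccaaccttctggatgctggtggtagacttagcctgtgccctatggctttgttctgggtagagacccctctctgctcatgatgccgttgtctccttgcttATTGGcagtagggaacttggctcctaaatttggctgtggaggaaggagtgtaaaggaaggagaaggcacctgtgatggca
Map2: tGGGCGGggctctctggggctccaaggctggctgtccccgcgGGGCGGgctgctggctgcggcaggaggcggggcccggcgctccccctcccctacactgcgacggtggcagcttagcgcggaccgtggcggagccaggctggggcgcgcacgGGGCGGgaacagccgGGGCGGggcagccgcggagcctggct
The Syt1 window held 2 CAAT boxes and 1 GC box. A window at another Syt1 start site (chr10:109009112-109009361), not shown, held no match. The Rbfox3 window held 1 CAAT box. It lies inside the annotated body of Rbfox3 (chr11:118489762-118911597). The listed Rbfox3 transcripts NONMMUT012974.2 and NONMMUT086041.1 lie upstream of it. For Map2 there were 5 GC boxes in the whole 250 bases, of which 4 are in the stretch shown, and no other match. Of 32851 promoters read over the same 250 bases, 33.8% held a CAAT box, 32.7% a GC box and 12.4% a TATA box. These matches describe letters in a window and are not binding data.

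The first comparison set injured cord against control cord, summing counts over all listed transcripts of each gene. Sums over Nefm, Syt1 and Rbfox3 fell to about the same degree, and that over Map2 did not pass the test. Levels are CPM (counts scaled to a common library size over the listed transcripts) after TMM scaling, and SDs are over 3 libraries. Syt1 was the most abundant sum, at 295 ± 63.8 CPM in injury and 559 ± 25.6 CPM in control (SD, n = 3 each).

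For Nefm, the medium neurofilament gene, the sum was 40.4, 23.9 and 36.0 CPM in the HBO libraries, 32.2, 37.8 and 32.9 CPM in the injury libraries, and 71.6, 65.6 and 81.4 CPM in the control libraries. All 6 libraries from injured cord lay below all control libraries, and HBO overlapped injury. The log2 change in injury against control was -1.09 (SE 0.21, 95% interval -1.55 to -0.62, adjusted p = 0.0156, edgeR's quasi-likelihood test, adjusted by Benjamini-Hochberg over 7116 gene sums).

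For Syt1, the calcium sensor gene, the sum was 317, 238 and 257 CPM in HBO, 226, 353 and 305 CPM in injury, and 588, 548 and 541 CPM in control. Again every library of injured cord was below every control library, with injury replicate 2 the highest of the 6. Its log2 change in injury against control was -0.92 (SE 0.17, 95% interval -1.31 to -0.54, adjusted p = 0.0152 by edgeR).

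For Rbfox3, the NeuN gene, the sum was 34.6, 27.2 and 39.7 CPM in HBO, 29.2, 42.1 and 38.4 CPM in injury, and 68.6, 62.4 and 72.0 CPM in control. The split was the same, with no overlap between injured and control cord. The log2 change in injury against control was -0.89 (SE 0.19, 95% interval -1.32 to -0.45, adjusted p = 0.0222 by edgeR).

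For Map2, the dendritic gene, the sum was 122, 87.1 and 117 CPM in HBO, 78.9, 97.3 and 100.1 CPM in injury, and 132, 109 and 121 CPM in control. Injury lay below control without overlap, but the gap was narrow, and HBO overlapped both other groups. The log2 change in injury against control was -0.39 (SE 0.17, 95% interval -0.77 to -0.01, adjusted p = 0.140 by edgeR). Whether Map2 changed less than the other genes was not tested.

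**Figure D1:**
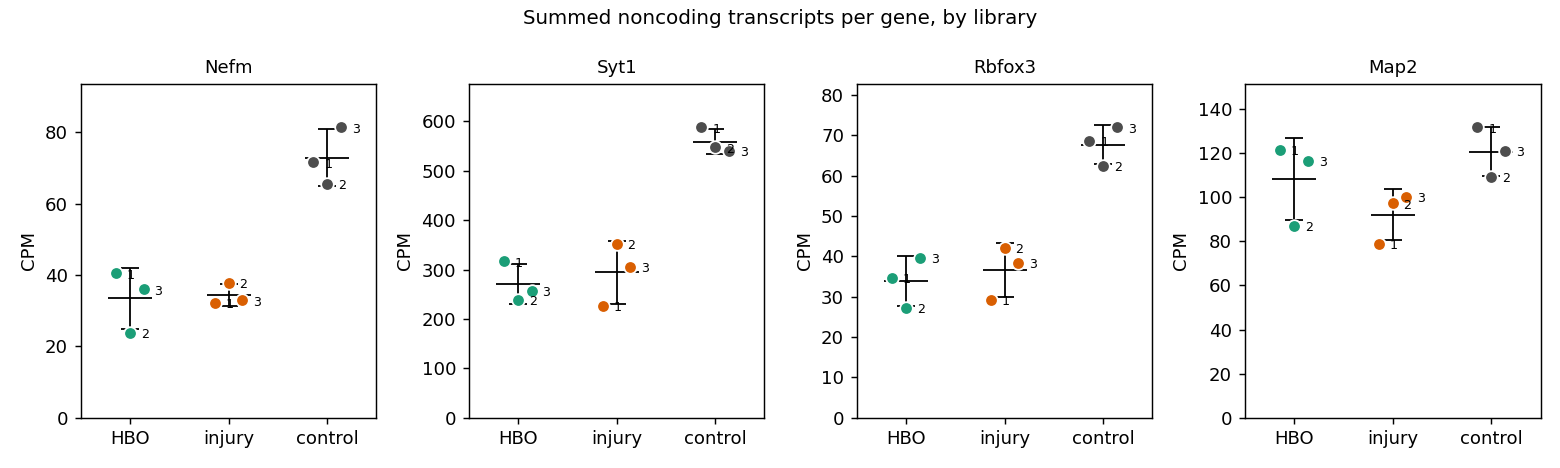
Summed counts of listed noncoding transcripts over each gene, in CPM from 0, for HBO, injury and control; points are libraries labelled with their replicate number, and bars are the mean and SD (n = 3). For Nefm, Syt1 and Rbfox3 the 3 control libraries sit above all others, and for Map2 HBO overlaps control.

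Thus 3 of the 4 tested sums fell in injury against control, where 3.75% of all 7116 tested gene sums fell. All 4 had their injury libraries below their control libraries, as did 11.7% of all sums. The median over the 4 was -0.91 on the log2 scale, against 0.205 over all sums. Relative to that median of all sums, the log2 changes were -1.29 for Nefm, -1.13 for Syt1, -1.09 for Rbfox3 and -0.60 for Map2. Scaling moves this background: with TMM factors computed on the gene sums themselves, the median over all sums was 0.01 and 433 of 890 calls were downward, while with the scaling used here 267 of 1101 were; the same number of the 4 sums, 3, passed under both. Without control replicate 1, none of the 4 passed in edgeR (adjusted p = 0.0600 for Nefm, 0.0604 for Syt1 and 0.0705 for Rbfox3), with log2 changes of -1.11, -0.89 and -0.88. Leaving out injury replicate 1 left 1 call, that of Syt1, with an adjusted p of 0.0628 for Nefm and 0.0763 for Rbfox3 by edgeR. Rbfox3 also missed the threshold when control replicate 2 or 3 was left out (adjusted p = 0.0525 and 0.0566 by edgeR).

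In whole tissue, fewer neurons and less RNA per neuron cannot be told apart. Transcripts over genes of other cell types also moved in these libraries. Over all 7116 gene sums, 11.7% rose in injury against control and 9.08% rose in HBO against control. Of 11 microglia and macrophage genes, 6 were tested, 3 rose in injury against control and 3 did so in HBO against control; their summed level was 224 to 289 CPM in HBO, 231 to 394 CPM in injury and 120 to 143 CPM in control, and Tmem119, Cd68 and Lyz2 had no listed transcript. Of the 6 changes in injury against control 1 was negative, that of Gpnmb (log2 change -2.38, adjusted p = 0.340 by edgeR). Gpnmb averaged 15.7 ± 13.6 CPM in HBO, 0.507 ± 0.230 CPM in injury and 2.86 ± 3.42 CPM in control (SD, n = 3 each). Of 8 fibroblast genes, 5 were tested and 2 rose in each comparison with control; they summed to 1030 to 2098 CPM in HBO, 248 to 691 CPM in injury and 9.54 to 86.2 CPM in control, and Col3a1 and Lum had no listed transcript. Col1a1 alone averaged 1457 ± 496 CPM in HBO, 375 ± 280 CPM in injury and 32.0 ± 34.5 CPM in control (SD, n = 3 each). In HBO against injury its log2 change was 1.96 (adjusted p = 0.992 by edgeR). The other 4 tested changes in that comparison were negative, and none passed. Of 8 astrocyte genes, 6 were tested, 2 rose in injury and 1 rose in HBO against control. Gfap and Slc1a2 were not tested. Among the 6, 3 changes were negative in injury and 2 in HBO against control, none of them passing. Astrocyte genes summed to 1359 to 1623 CPM in HBO, 576 to 1678 CPM in injury and 590 to 1512 CPM in control. Within these sums Slc4a4 alone averaged 1140 ± 127 CPM in HBO, 853 ± 551 CPM in injury and 903 ± 554 CPM in control (SD, n = 3 each). Of 8 oligodendrocyte genes, 3 were tested and none passed, with sums of 978 to 1174 CPM in HBO, 844 to 1032 CPM in injury and 876 to 1169 CPM in control; Mobp, Cnp, Myrf and Opalin had no listed transcript. Of 6 endothelial genes, 3 were tested: Pecam1, an endothelial adhesion molecule, rose in injury, at 8.47 ± 2.54 CPM, against 3.26 ± 1.01 CPM in control (SD, n = 3 each; log2 change 1.36, adjusted p = 0.0491 by edgeR), and none passed in HBO against control. Flt1 went the other way without passing (log2 change -3.08 in injury against control, adjusted p = 0.178 by edgeR). It averaged 4.93 ± 5.59 CPM in injury and 42.0 ± 36.0 CPM in control (SD, n = 3 each). Tek did not pass either (log2 change 0.75, adjusted p = 0.301 by edgeR). Endothelial genes summed to 10.1 to 84.4 CPM in HBO, 18.5 to 28.1 CPM in injury and 11.6 to 76.9 CPM in control. Schwann genes summed to at most 5.05 CPM in any library. The part of such shifts in the neuronal sums was not tested.

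The next comparison set hyperbaric oxygen against injury alone. None of the 4 sums passed in edgeR (adjusted p = 0.992 for each), and none had an unadjusted p under 0.05. The log2 changes were -0.04 for Nefm (95% interval -0.50 to 0.43), -0.12 for Syt1 (-0.51 to 0.26), -0.11 for Rbfox3 (-0.55 to 0.33) and 0.24 for Map2 (-0.14 to 0.61). Across all gene sums 0.0281% passed by edgeR, an unadjusted p under 0.05 was found for 308, and DESeq2 passed 8, none of them among the 4. The libraries of HBO and injury overlapped for every one of the 4 genes. The intervals span 0 for all 4 genes.

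Hyperbaric oxygen was also set against control, with the same control libraries as above, so the comparisons are not independent of each other. Sums over Nefm, Syt1 and Rbfox3 fell, and Map2 again did not pass. The log2 change was -1.12 for Nefm (SE 0.21, adjusted p = 0.0174), -1.05 for Syt1 (SE 0.17, adjusted p = 0.0149) and -0.999 for Rbfox3 (SE 0.19, adjusted p = 0.0201) by edgeR. For Map2 it was -0.15 (SE 0.17, 95% interval -0.53 to 0.22, adjusted p = 0.586 by edgeR). Those 3 also had HBO below control without overlap, as did 10.1% of all sums. These 3 falls compare with 2.26% of all sums that fell and a median over all sums of 0.172. Without control replicate 1, none passed here either (adjusted p between 0.0565 for Syt1 and 0.0722 for Rbfox3 by edgeR). Rbfox3 also missed the threshold when control replicate 2 or 3 or HBO replicate 2 was left out (adjusted p between 0.0502 and 0.0674 by edgeR).

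Order among the groups was therefore the same for Nefm, Syt1 and Rbfox3: HBO and injury did not differ beyond their spread, and control stood above both. Across the 9 libraries these sums also tracked each other: Pearson's r of log2 CPM was 0.943 between Nefm and Syt1, 0.963 between Nefm and Rbfox3 and 0.960 between Syt1 and Rbfox3, and between 0.695 and 0.725 for each with Map2. The libraries share their groups and depth, and these values are descriptions. The 5 gene sums whose pattern came closest to the mean of the 4 tested sums, out of 7112 others, were Slc3a1 (r = 0.988), Atp2b2 (0.986), Gm42517 (0.985), Hs6st3 (0.983) and Osbpl6 (0.981). Atp2b2 encodes a plasma membrane calcium pump, Hs6st3 a heparan sulfate sulfotransferase, Osbpl6 an oxysterol-binding protein family member and Slc3a1 an amino acid transporter subunit. The Slc3a1 value rests on 1 transcript, at 352, 225 and 291 CPM in HBO, 206, 281 and 269 CPM in injury, and 552, 458 and 524 CPM in control.

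Taken one at a time, 26 of the 35 transcripts were tested, and the other 9 had between 2 and 77 counts over all libraries. In injury against control all 26 changes were negative, with a median of -0.65 against 0.00487 over all 26850 transcripts tested. Of the 26, 2 fell, where 2.25% of all transcripts did, and 16 had their injury libraries below their control libraries, as did 18.8% of all. Against injury, HBO gave 9 negative and 17 positive changes, none of which passed in edgeR or had an unadjusted p under 0.05, where 0.0149% of all passed and 977 had such a p; DESeq2 called 45 of all, none of them here. Against control, HBO gave 26 negative changes, of which 1 passed, where 1.28% of all fell; 13 did not overlap, as in 16.6% of all. Members of a gene share its host RNA, so they are not independent of one another.

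**Figure D2:**
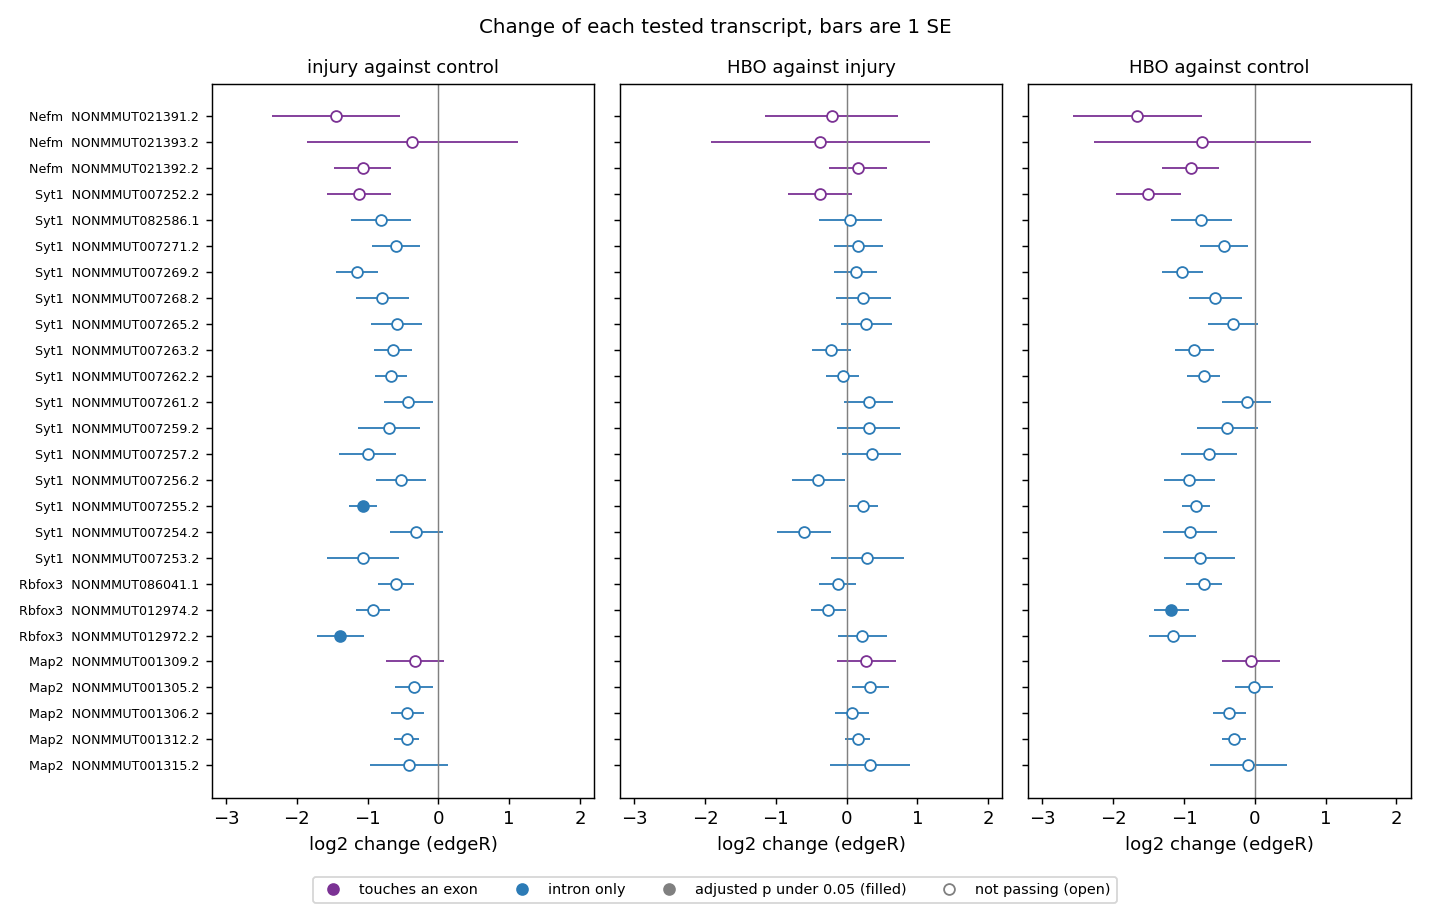
Log2 change of each of the 26 tested transcripts by edgeR, with bars of 1 SE, for injury against control, HBO against injury and HBO against control; purple points touch an exon of the host gene, blue points are intronic, and filled points pass an adjusted p of 0.05. All points lie left of 0 in both comparisons with control, and the 3 filled points are in Syt1 and Rbfox3 introns.

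The transcripts that passed lay in introns of Rbfox3 and Syt1. In Rbfox3, NONMMUT012972.2 (chr11:118591562-118592515) stood at 9.72, 5.03 and 6.48 CPM in HBO, 5.31, 8.10 and 4.80 CPM in injury, and 14.02, 20.3 and 13.5 CPM in control. All control libraries were above all others. Its log2 change in injury against control was -1.38 (SE 0.33, adjusted p = 0.0473 by edgeR). The call was lost when any library other than HBO replicate 2 was left out (adjusted p = 0.0523 to 0.160 by edgeR) and with no count filter (adjusted p = 0.111).

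Another Rbfox3 intron transcript, NONMMUT012974.2 (chr11:118768517-118770270), stood at 10.9, 9.21 and 14.98 CPM in HBO, 10.2, 15.4 and 16.3 CPM in injury, and 28.4, 24.2 and 26.9 CPM in control. Again the groups from injured cord lay wholly below control. It fell in HBO against control (log2 change -1.18, SE 0.25, adjusted p = 0.0403 by edgeR), and in injury against control its log2 change was -0.92 (adjusted p = 0.0576 by edgeR). The call in HBO against control was lost when any library other than injury replicate 1 was left out (adjusted p = 0.0525 to 0.137 by edgeR, log2 changes -1.40 to -1.03) and with no count filter (adjusted p = 0.1002).

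The last of the abundant Rbfox3 transcripts, NONMMUT086041.1, had 13.6, 12.6 and 18.2 CPM in HBO, 13.6, 17.8 and 17.0 CPM in injury, and 25.8, 17.1 and 30.2 CPM in control. Control replicate 2 fell within the range of the others, and no comparison passed. The remaining 3 in Rbfox3, among them the Ensembl genes Gm11750 and Gm11749, had 3 to 5 counts in all. Gm11750 is annotated on the strand opposite to Rbfox3 and Gm11749 on the same strand.

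In a Syt1 intron, NONMMUT007255.2 (chr10:108637822-108639398) stood at 15.6, 12.1 and 13.8 CPM in HBO, 10.2, 12.7 and 12.2 CPM in injury, and 27.3, 20.7 and 25.8 CPM in control. The groups were tight, and control lay above both others. Its log2 change in injury against control was -1.07 (SE 0.20, adjusted p = 0.0280 by edgeR), and in HBO against control -0.83 (SE 0.20, adjusted p = 0.0522 by edgeR). The call in injury against control was lost when any 1 control or injury library was left out (adjusted p = 0.0584 to 0.109 by edgeR) and with no count filter (adjusted p = 0.0765).

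Syt1 offers transcripts along nearly its whole length. Its 14 tested intron transcripts lay between 34.5 and 464.1 kb from the annotated start of the gene. Per length, their group means were 0.357 to 2.04 FPKM in HBO, 0.260 to 2.04 FPKM in injury and 0.619 to 3.78 FPKM in control. Each of the 14 had its highest group mean in control. Their log2 changes in injury against control ran between -1.15 and -0.31 with a median of -0.68, and in HBO against control between -1.02 and -0.11 with a median of -0.74. The change showed no steady course with distance: across these 14 transcripts of 1 gene, which share reads of the same host RNA, Pearson's r with position was -0.06 for injury against control and -0.29 for HBO against control.

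**Figure D3:**
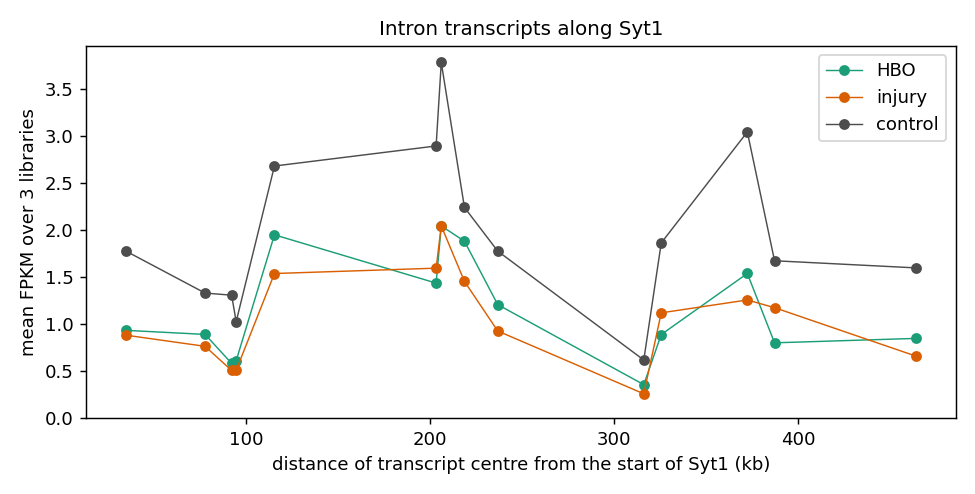
Mean FPKM over 3 libraries of each of the 14 tested intron transcripts of Syt1 (from 0) against the distance of its centre from the start of the gene in kb, for HBO, injury and control. The control line runs above the other 2 at every transcript, and HBO and injury cross each other several times.

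A single transcript, NONMMUT007252.2 (chr10:108497654-108499386, 1733 bases), made up 48.7% of the Syt1 sum. It lies wholly on the last Syt1 exon, within the 3′ UTR. Per length it was far above the intron transcripts, at 16.4, 11.6 and 3.96 FPKM in HBO, 9.02, 17.6 and 13.95 FPKM in injury, and 35.005, 34.8 and 32.8 FPKM in control. In CPM it stood at 168, 116 and 37.2 in HBO, 100.5, 184 and 132 in injury, and 314, 289 and 304 in control. Control was high and even, while HBO replicate 3 was the lowest of all 9 libraries by a wide margin. The log2 change was -1.13 in injury against control (SE 0.45, adjusted p = 0.146) and -1.50 in HBO against control (SE 0.46, adjusted p = 0.0867) by edgeR. Without HBO replicate 3, whose spread enters the shared estimate, the change in injury against control was -1.13 with an adjusted p of 0.0474 by edgeR, and that in HBO against control was -1.10 with an adjusted p of 0.0791. Over all omissions of 1 library the adjusted p by edgeR ran from 0.0474 to 0.364 in injury against control. In HBO against control it ran from 0.0651 to 0.217.

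Splitting each gene into its exon-touching and its intron transcripts gave 6 tested sums. In injury against control the Nefm exon sum and the Rbfox3 intron sum fell, 2 of 6, where 2.89% of 9042 such sums fell. In HBO against control the same 2 sums fell, where 1.74% did. Neither passed in injury against control when control replicate 1 or 2 or injury replicate 1 was left out, and the Rbfox3 intron sum also missed when control replicate 3 or injury replicate 3 was (adjusted p = 0.0552 to 0.0888 for Rbfox3 by edgeR). In HBO against control neither passed when any 1 control library was left out, and the Rbfox3 intron sum also missed when HBO replicate 2 was (adjusted p = 0.0578 to 0.0842 for Rbfox3 by edgeR). In HBO against injury none passed in edgeR or had an unadjusted p under 0.05, where 0.0221% passed; DESeq2 called 13 of all, none of them here. Both Syt1 sums had HBO and injury below control without overlap but did not pass: the exon log2 changes were -1.12 in injury (adjusted p = 0.129) and -1.50 in HBO (adjusted p = 0.0717) against control, and the intron changes -0.72 (adjusted p = 0.0629) and -0.64 (adjusted p = 0.0961) by edgeR.

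Within Syt1, HBO replicate 3 had an unusual balance of exon and intron reads. The ratio of exon to intron counts was 1.13, 0.949 and 0.171 in HBO, 0.804, 1.10 and 0.769 in injury, and 1.16, 1.13 and 1.29 in control. Over all host genes together the same ratio was 0.926, 0.895 and 0.842 in HBO, 0.919, 0.9002 and 0.896 in injury, and 0.879, 0.848 and 0.927 in control. So the low Syt1 ratio of HBO replicate 3 stood beside a whole-library ratio that was the lowest of the 9 by a small margin. Its intron sum of 219.8 CPM was the highest among injured libraries and below every control library. Of 1978 genes with both parts tested, 53 (2.68%) had an exon-to-intron ratio in HBO replicate 3 that was as far below those of HBO replicates 1 and 2. Map2 also had its lowest ratio there, 0.103 against 0.283 and 0.261 in HBO replicates 1 and 2; injury had 0.118 to 0.278 and control 0.146 to 0.247. A shift as far down as that of Map2 was found for 132 of the 1978 genes (6.67%). Without HBO replicate 3 the Syt1 intron sum passed in both comparisons with control (log2 change -0.72, adjusted p = 0.0317 in injury and -0.92, adjusted p = 0.0416 in HBO, by edgeR), and the Syt1 exon sum passed in injury against control (adjusted p = 0.0301).

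**Figure D4:**
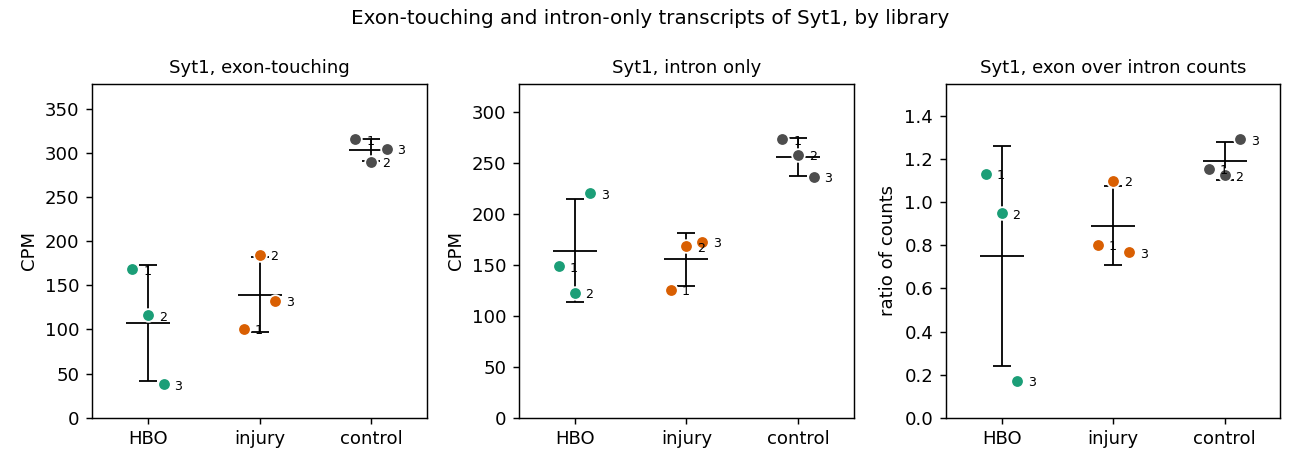
Exon-touching and intron-only sums of Syt1 in CPM, and the ratio of their counts, each from 0, for HBO, injury and control; points are libraries labelled by replicate, and bars are the mean and SD (n = 3). HBO replicate 3 is lowest for the exon sum and the ratio (0.171) and highest of the 6 injured libraries for the intron sum.

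At Nefm the 3 overlapping first-exon transcripts divided the reads unevenly between libraries. NONMMUT021392.2 is unspliced and took 28.4% to 61.2% of their joint counts. NONMMUT021391.2 and NONMMUT021393.2 are spliced, reach further upstream of the gene and took 1.18% to 54.9% and 0% to 45.9%. In control replicate 1 the last of these had 85 counts and in each of control replicates 2 and 3 it had 1, so replicates of 1 group lay at opposite ends. Their sum was steadier, at 40.05, 23.5 and 34.4 CPM in HBO, 32.2, 37.4 and 32.5 CPM in injury, and 70.1, 64.4 and 78.2 CPM in control. None of the 3 passed alone, with SEs on the log2 scale of 0.41 to 1.49 in injury against control, whereas their sum fell (log2 change -1.06, SE 0.20, adjusted p = 0.0184) in that comparison and in HBO against control (-1.12, SE 0.20, adjusted p = 0.0205) by edgeR. The sum missed the threshold in injury when control replicate 1 or 2 or injury replicate 1 was left out (adjusted p = 0.0559 to 0.0725 by edgeR), and in HBO when any 1 control library was (adjusted p = 0.0528 to 0.0738 by edgeR). When the most abundant of overlapping transcripts alone was kept, the Nefm sum did not pass (adjusted p = 0.0944 in injury and 0.167 in HBO against control by edgeR). The intron transcript of Nefm had 24 counts in all.

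**Figure D5:**
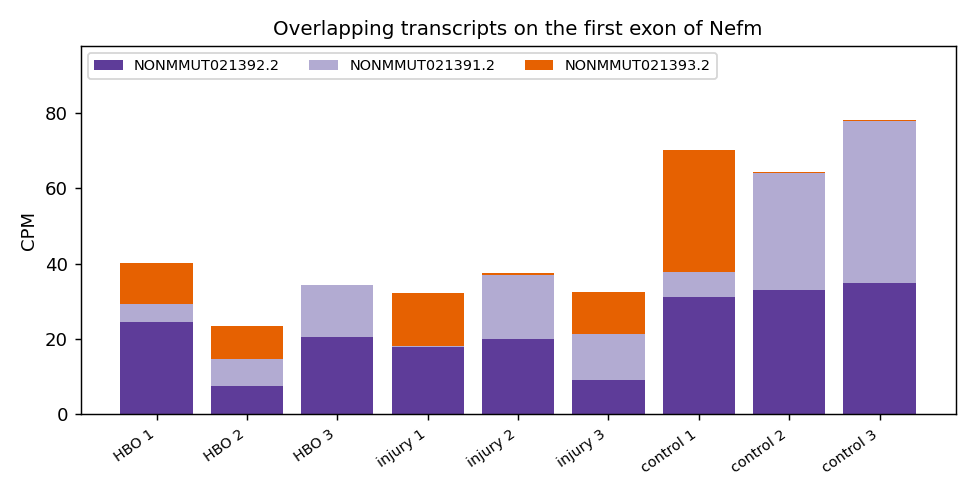
Stacked CPM of the 3 listed transcripts whose spans overlap the first exon of Nefm, one bar per library from 0, with HBO, injury and control from left to right. The split between transcripts varies within each group, while the full height is 64.4 to 78.2 CPM in control and 23.5 to 40.05 CPM in the other libraries.

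No Map2 transcript passed in any comparison. NONMMUT001305.2, the most abundant, had 45.9, 24.3 and 55.9 CPM in HBO, 30.7, 33.6 and 35.5 CPM in injury, and 45.5, 41.3 and 39.99 CPM in control. HBO covered the whole range of both other groups. Its log2 change was -0.35 in injury against control (adjusted p = 0.437) and -0.01 in HBO against control (adjusted p = 0.990) by edgeR. NONMMUT001306.2 and NONMMUT001312.2 averaged 19.5 ± 4.52 and 24.6 ± 2.88 CPM in HBO, 18.5 ± 1.90 and 22.1 ± 3.61 CPM in injury, and 25.1 ± 5.99 and 30.2 ± 2.23 CPM in control (SD, n = 3 each). The 4 intron changes in injury against control ran between -0.45 and -0.35, and the transcript on the 5′ UTR exon, NONMMUT001309.2, had -0.34 (adjusted p = 0.642 by edgeR).

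The Snap25 transcript, NONMMUT109753.1, had 5, 0 and 4 counts in HBO, 2, 1 and 3 counts in injury, and 1, 4 and 3 counts in control. With 23 counts in all it was not tested, and a difference was not detectable at this depth. Nefl, with no listed transcript, has no value here.

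Related genes were read as sums in the same way, on lists chosen with earlier results of these data known. For their counts, over all gene sums 3.75% fell and 11.7% rose in injury against control (median 0.205), and 2.26% fell and 9.08% rose in HBO against control (median 0.172). Of 21 neurofilament and cytoskeleton genes, 13 were tested. In injury against control 1 fell and 12 did not pass, and all 13 changes were negative, with a median of -0.47. Stmn3, a microtubule-destabilising protein of neurons, fell to 54.3 ± 19.7 CPM in injury, against 116 ± 6.84 CPM in control (SD, n = 3 each; log2 change -1.10, adjusted p = 0.0289 by edgeR). Dcx, a microtubule protein of young neurons, averaged 15.7 ± 5.71 CPM in injury and 27.5 ± 5.02 CPM in control and did not pass (adjusted p = 0.105 by edgeR). In HBO against control none of the 13 passed by edgeR, with a median of -0.32 and 10 negative; the smallest p was that of Kif5a, an axonal transport motor, at a log2 change of -0.75 (adjusted p = 0.0676).

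Synaptic vesicle and SNARE genes gave 32 tested sums of 44. In injury against control the counts were 7 lower, 1 higher and 24 not passing, and the median was -0.44. Sv2c, a vesicle glycoprotein, fell to 410 ± 63.5 CPM in injury, against 837 ± 79.7 CPM in control (log2 change -1.03, adjusted p = 0.0148 by edgeR). Unc13c, a vesicle priming factor, also fell (log2 change -0.82, adjusted p = 0.0247 by edgeR). The one that rose was Snap23, the SNAP-25 relative found widely outside neurons, at 23.6 ± 1.38 CPM in injury and 11.8 ± 3.798 CPM in control (log2 change 0.99, adjusted p = 0.0382 by edgeR). In HBO against control the counts were 3 lower, 1 higher and 28 not passing, and the median was -0.51. Erc2 and Rims2, both of the presynaptic active zone, had log2 changes of -0.67 (adjusted p = 0.0340) and -0.71 (adjusted p = 0.0401), and Snap23 again rose (log2 change 0.997, adjusted p = 0.0440 by edgeR).

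Neuronal RNA-binding regulators, the family to which Rbfox3 belongs in function, gave 14 tested sums of 16. In injury against control 6 fell and 8 did not pass, with a median of -0.51. Rbfox1, a close relative of Rbfox3, fell to 1662 ± 212 CPM in injury, against 2611 ± 86.8 CPM in control (log2 change -0.65, adjusted p = 0.0193 by edgeR), and Khdrbs2, a splicing regulator, fell by 0.94 (adjusted p = 0.0233). In HBO against control 2 fell and 12 did not pass, with a median of -0.41: Rbfox1 at -0.63 (adjusted p = 0.0254 by edgeR) and Srrm4, a regulator of neuronal microexons, at -0.68 (adjusted p = 0.0269). Celf2 had the smallest p among the upward changes, with a log2 change of 0.33 in both comparisons with control. It did not pass (adjusted p = 0.0841 in injury and 0.103 in HBO by edgeR). Rbfox2, which many tissues use, had a log2 change of 0.11 in both comparisons with control and did not pass (adjusted p = 0.460 in injury and 0.524 in HBO). In HBO against injury none of the tested members of these lists passed by edgeR, and the largest departure named by the same rule was that of Map1b, an axonal microtubule protein, at a log2 change of 0.83 (unadjusted p = 0.00935, adjusted p = 0.992). Map1b had 397 ± 99.7 CPM in HBO and 223 ± 58.1 CPM in injury.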

How the data were processed

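Total RNA of 9 spinal cord libraries was sequenced. Per the file headers, the authors deposited for each listed long noncoding transcript a whole-number count, not normalized, and an FPKM value. The FPKM values are scaled, by the authors, to the listed length and to a library total of which the listed counts are 17.1% to 19.5%. Per the submitters' processing notes, HISAT2 and the GRCm38 build were used; which program counted reads, and how it treated strand, is not given in the sources used here. Positions of 6656 Ensembl transcripts could be looked up in GENCODE M21, and 97.1% were identical.

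Counts of transcripts overlapping a protein-coding gene body by at least 1 base, on either strand, were summed per gene, and also apart for exon-touching and intron transcripts. Transcripts, gene sums and part sums were each fitted over all features in edgeR 4.0.16 under R 4.3.3 (glmQLFit and glmQLFTest, low counts removed by filterByExpr at a minimum count of 10, TMM factors of the transcript table, all 9 libraries by group). Calls are at an adjusted p under 0.05 (Benjamini-Hochberg over all features). SEs come from the test statistic. Likeness and components used log2(CPM + 1). The fits were tested on simulated counts. FPKM served as a description of level per length and, in 1 alternative, as the source of library totals for scaling.

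The genes and lists were chosen with earlier results of these data known. Named transcripts were the 3 most abundant of each gene and any that passed, and named list members the up to 2 smallest p-values each way. Alternatives were RLE scaling, no count filter, DESeq2 1.42.0, a replicate block, only the 2 groups compared, leaving out each library, library totals from FPKM, and other overlap rules. Every pair of replicates differed by more than counting noise (chi-square 6.54 to 17.7 per degree of freedom). Counts limit precision most for transcripts with few reads.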

Additional observations from a re-analysis of the deposited data

How the results depend on the processing

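Over all alternatives run, the sums of Nefm, Syt1, Rbfox3 and Map2 against control reversed direction in 0 of 142 values. Calls depended more on single libraries. Leaving out 1 library gave 0 to 3 called gene sums in injury and 0 to 3 in HBO against control, 0 to 3 and 0 to 1 called transcripts, and 0 to 4 and 0 to 3 exon or intron sums. Calls over all features moved too. Without control replicate 1, all exon and intron sums gave 70 calls in injury and 3 in HBO against control. With all 9 libraries they gave 1120 and 842. The replicate block kept 2 gene sums in injury and 1 in HBO against control, and 0 transcripts and 0 exon or intron sums; the replicate numbers do not pair the libraries (r of same-numbered deviations -0.05 to 0.06, and 3 of 9 libraries correlated best with their own number). With no count filter 0 transcripts passed against control in either group. DESeq2 called 2 transcripts and 4 exon or intron sums in HBO against control. Fits of the 2 groups compared called 4 transcripts and 4 exon or intron sums in injury, and 0 transcripts in HBO, against control. Library totals from FPKM called 4 transcripts in injury and 2 in HBO against control. Over all transcripts that setting called 1262 lower in injury against control, where the main fit called 604. The median over all went from 0.00487 to -0.212. In HBO against control it called 359 lower, where the main fit called 344. In HBO against control DESeq2 called 1699 of all transcripts and 1577 of all part sums, against 1084 and 842 in the main fit. The cause of these shifts was not tested.

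Values of HBO against injury made up 29 of the 42 single values that turned sign. With FPKM totals, Nefm was 0.0253 and its exon sum 0.000139; with the highest of overlapping transcripts, Nefm was 0.21. NONMMUT001305.2 in HBO against control was 0.0194 with no filter. With the replicate block, NONMMUT021391.2 in HBO against injury was 0.15, and NONMMUT021393.2 was 0.32 in HBO and 0.71 in injury against control. Ranges with 1 library left out that crossed 0 were, for HBO against injury, -0.19 to 0.16 for Nefm, -0.23 to 0.13 for its exon sum, -0.25 to 0.0229 for Rbfox3 and its intron sum, -0.28 to 0.0277 for Syt1, -0.86 to 0.0254 for its exon sum, -0.86 to 0.0271 for NONMMUT007252.2, -0.20 to 0.25 for its intron sum, -0.0823 to 0.62 for the Map2 exon sum, -0.10 to 0.23 for NONMMUT001306.2, -0.17 to 0.57 for NONMMUT007261.2, -0.24 to 0.505 for NONMMUT007265.2, -0.0733 to 0.48 for NONMMUT012972.2, -0.77 to 0.43 for NONMMUT021391.2, -0.15 to 0.52 for NONMMUT021392.2 and -0.95 to 0.20 for NONMMUT021393.2. Against control they were -0.41 to 0.21 for the Map2 exon sum, -0.27 to 0.28 for NONMMUT001305.2, -0.59 to 0.16 for NONMMUT007261.2 and -1.32 to 3.94 for NONMMUT021393.2 in HBO, and -0.95 to 4.31 for NONMMUT021393.2 in injury. TMM on the gene sums or part sums themselves was added after seeing the data. A same-strand count was not run, since the files carry no strand. Depth limits the 9 untested transcripts, with 2 to 77 counts over all libraries, Snap25 among them.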
